A study of Mus musculus with 6 samples.

Results

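Polycomb repressor genes were measured in hematopoietic stem and progenitor cells of mouse bone marrow that carry different labelled doses of the transcription factor gene Erg. The 10 genes are Ezh2, Ezh1, Eed and Suz12 of the complex PRC2, and Bmi1, Ring1, Rnf2, Cbx2, Cbx7 and Cbx8 of the complex PRC1. They were taken by name, with every probe set that the array annotation maps to 1 of these symbols alone, which gave 28 of 45037 probe sets. None of the 10 genes differed between the 2 sorted populations by an amount that passed the test, and 0 of all 10824 genes tested did. The largest difference among the 10 was that of Ring1, whose level in knockdown-labelled cells was 0.893 times that in restored-labelled cells. The data are 6 Affymetrix arrays, 1 for each of 2 populations from each of 3 adult mice (278, 279 and 281).

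All 3 mice carried 1 knockdown allele of Erg (Ergkd/+), the Mx1Cre transgene, whose promoter responds to interferon, and the reporter R26Y at the Rosa26 locus, on a mixed 129-B6 background. Both populations are LSK cells, named for lacking lineage markers and bearing Sca-1 and c-Kit. By their labels the YFP+ cells have regained a wild type dose of Erg, while the YFP- cells keep a reduction of about 40%. The controls therefore come from the same mice and share their inherited genotype, while the state of the Erg allele differs by label. The sort was on the reporter and not on ERG itself, so Erg dose, Cre action and the choice of cells by Cre cannot be told apart. Erg did not show the labelled reduction. Its brighter probe set read 2731, 2901 and 2659 in restored-labelled cells of mice 278, 279 and 281 and 2970, 2754 and 2706 in knockdown-labelled cells, a log2 difference of 0.024 ± 0.12 (SE). Its dimmer probe set gave -0.11 ± 0.12, so the 2 populations are named by their labels here.

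Polycomb proteins keep developmental genes silent through marks on histones. PRC2 places methyl groups on lysine 27 of histone H3: EZH2 or its relative EZH1 is the catalytic subunit, and EED and SUZ12 hold the enzyme together. PRC1 places ubiquitin on histone H2A through the ligases RING1 and RNF2, while BMI1 is a partner of these ligases and the CBX proteins read the methyl mark through a chromodomain. In blood stem cells BMI1 is known for sustaining self-renewal by silencing the Cdkn2a locus, CBX7 for favouring self-renewal over differentiation, and EZH1 and EZH2 for partly replacing each other.

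ERG belongs to the ETS family, which binds DNA around GGAA, and genes of PRC2 are among those known to respond to E2F factors of the cell cycle, so the promoters of the members were searched for both kinds of site. RefSeq promoters of the mouse assembly GRCm38.p6, from 250 bases before to 50 after each start, were at hand for 9 members, all except Cbx2. The ETS site CCGGAAGT was found on either strand in 0 of 9, against 3.89% of all 32851 promoters. The shorter core CGGAAG, which lies within that site, was found in Ring1 alone, against 16.9% of all promoters. The E2F letters TTTCCCGC occurred in Suz12 and TTTGGCGC in Ezh2, against 1.07% and 0.514% of all promoters. The windows of 30 bases that hold these matches are shown 5′ to 3′ on the strand of the gene, with the matched letters in capitals, because they are the only matches among the members:
Suz12 (chr11:79992876-79992905, plus strand, match beginning 219 bases before the start): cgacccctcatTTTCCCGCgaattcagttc
Ezh2 (chr6:47595009-47595038, minus strand, match 3 bases after the start): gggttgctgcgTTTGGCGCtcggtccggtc
Ring1 (chr17:34024654-34024683, minus strand, match 8 bases after the start): tacagggagggCGGAAGtgacgtcgagcct

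The values below are probe set intensities as deposited, and a difference is the knockdown-labelled level less the restored-labelled one, in units of log2(intensity + 16), with the standard error of a limma fit that pairs the arrays by mouse. Adjusted p-values are Benjamini-Hochberg values over all 10824 genes tested, each gene read by its brightest probe set. Probe sets whose mean lay below an intensity of 143, the median of all probe sets, were not taken as a gene's reading. All 10 genes passed this filter by at least 1 probe set, and 18 of the 28 probe sets passed. Intensities of different probe sets are not compared with each other, since each has its own response. Fewer cells of a type and less RNA per cell cannot be told apart in such sorted populations.

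Ezh2, the catalytic subunit that dominates in dividing cells, had a single probe set (1416544_at). It read 5272, 5912 and 5010 in restored-labelled cells of mice 278, 279 and 281, and 5006, 5020 and 5377 in knockdown-labelled cells. The groups overlapped, with the restored-labelled cells of mouse 279 the highest of all, and the difference was -0.069 ± 0.098 (adjusted p = 0.846, limma). The 95% interval of the fold runs from 0.789 to 1.15. Mice 278 and 279 gave -0.074 and -0.24 and mouse 281 gave 0.10. Without mouse 279 the difference was 0.014.

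Ezh1, the catalytic subunit associated with resting cells, was read by 4 probe sets that did not move together. The brightest (1449023_a_at) read 1473, 1747 and 1238 in restored-labelled cells and 1397, 1319 and 1258 in knockdown-labelled cells. Here the restored-labelled array of mouse 279 stood above the other 5, and the difference was -0.15 ± 0.11 (adjusted p = 0.784, limma; -0.027 without mouse 279). The next (1418290_a_at) read 744, 723 and 620 against 836, 665 and 792, a difference of 0.13 ± 0.15 in the fit of every probe set. The 2 bright readings of Ezh1 thus pointed opposite ways, and neither passed the test. A dim probe set (1429629_at) read 64.6, 89.7 and 41.2 against 48.2, 40.1 and 32.2. It was lower in every mouse, at -0.50 ± 0.18 (adjusted p = 0.817, limma over 45037 probe sets), but below the filter intensity throughout. The remaining one stayed between 16.4 and 23.7 on all arrays.

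Eed, whose protein binds the methylated histone tail and stimulates the enzyme, had the widest error of the PRC2 genes. Its bright probe set (1448653_at) read 3691, 4331 and 3392 in restored-labelled cells and 3732, 3126 and 3993 in knockdown-labelled cells. The mice disagreed, with differences of 0.016, -0.47 and 0.23, which left -0.073 ± 0.16 (adjusted p = 0.903, limma). Without mouse 279 the sign turned and the difference was 0.13. The other Eed probe set lay between 13.2 and 25.7 on all arrays.

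Suz12, the scaffold subunit of PRC2, was higher in knockdown-labelled cells on each of its 6 probe sets, of which 2 (1420022_s_at and 1449661_at) turned to -0.0013 and -0.0066 when the medians of the arrays were made equal. For the 5 bright ones the largest step was that of mouse 279. The brightest (1420021_s_at) read 4115, 3334 and 4229 in restored-labelled cells against 4133, 4361 and 4324, a difference of 0.14 ± 0.11 (adjusted p = 0.784, limma). Mouse 279 contributed 0.39, and mice 278 and 281 contributed 0.0064 and 0.032. The probe sets 1420022_s_at and 1449661_at showed the same shape, at 0.11 ± 0.14 and 0.10 ± 0.13. It was larger for 1427253_s_at, which read 2997, 1706 and 2915 against 3128, 3137 and 2936. It was largest for 1452364_at, with 1868, 825 and 1745 against 1986, 1887 and 1752. On these 2 probe sets the restored-labelled array of mouse 279 stood 0.81 and 1.16 log2 units below the median of the other 5 arrays, which agreed closely among themselves. The differences of 0.31 ± 0.22 and 0.42 ± 0.28 carry large errors for that reason. Without mouse 279 the brightest probe set gave 0.019. A dim probe set (1420020_at, 102, 64.3 and 99.7 against 129, 111 and 128) was higher in every mouse without overlap of the groups, at 0.42 ± 0.14 (adjusted p = 0.817, limma over 45037 probe sets).

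**Figure D1:**
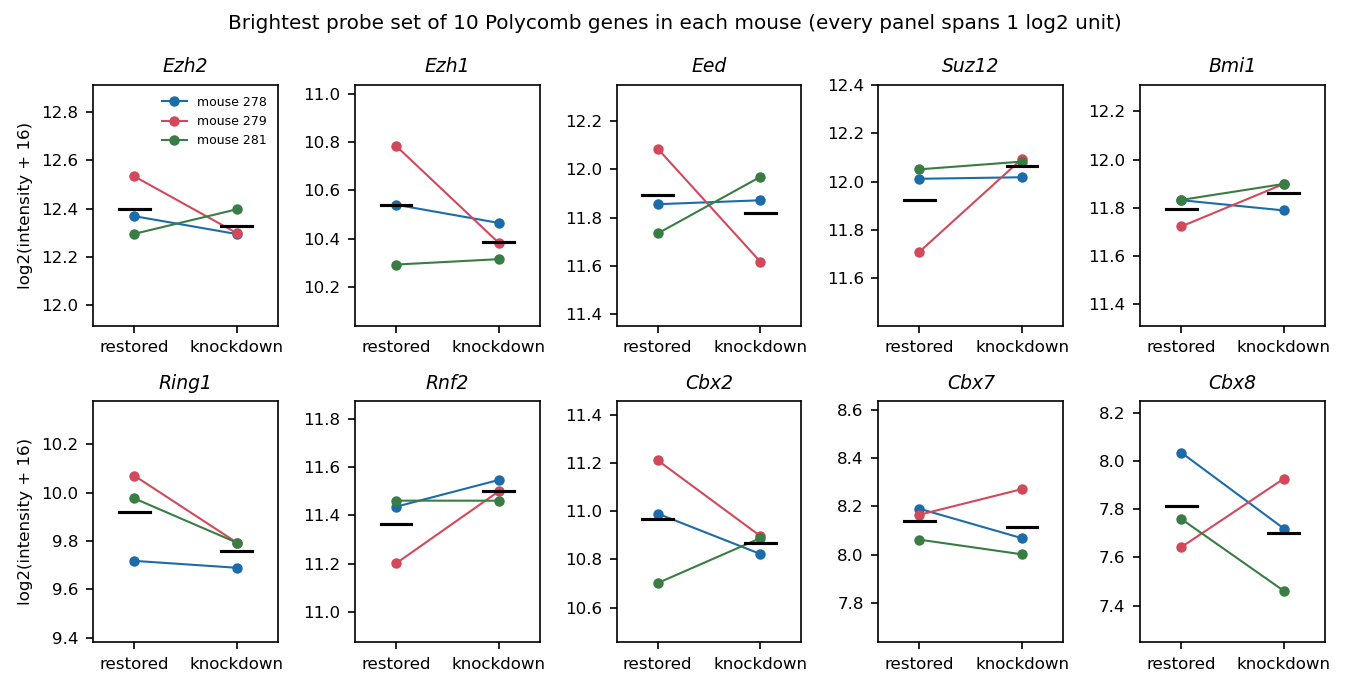
Level of each gene's brightest probe set, as log2(intensity + 16), in the restored-labelled and knockdown-labelled cells, with 1 line per mouse, a black bar at the mean of 3 arrays, and every panel spanning 1 log2 unit. The lines of mouse 279 are the steepest for Ezh2, Ezh1, Eed, Suz12, Bmi1, Ring1, Rnf2 and Cbx2, and the groups overlap in all 10 panels.

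Bmi1, the PRC1 partner subunit tied to self-renewal, was read by 2 bright probe sets. The brighter (1417493_at) read 3630, 3365 and 3633 in restored-labelled cells and 3524, 3804 and 3804 in knockdown-labelled cells. That difference was 0.067 ± 0.082 (adjusted p = 0.827, limma), with a 95% interval of the fold from 0.894 to 1.23, and it was -0.040 with median centring, which gives all arrays the same median. The other (1448733_at) read 2786, 2646 and 2919 against 3147, 3394 and 3366, so that every knockdown-labelled array lay above every restored-labelled one. Its difference was 0.25 ± 0.12 (adjusted p = 0.834, limma over 45037 probe sets), with 0.17, 0.36 and 0.20 in the single mice. An exact two-sided test that flips the signs of the 3 differences gave p = 0.25, the lowest value possible with so few mice.

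The 2 ubiquitin ligases pointed opposite ways, and neither difference passed the test. Ring1, read by a single probe set (1422647_at), gave 826, 1059 and 991 in restored-labelled cells and 809, 871 and 871 in knockdown-labelled cells. It was lower in all 3 mice, at -0.029, -0.28 and -0.18, although the groups overlapped because both arrays of mouse 278 were low. The difference of -0.16 ± 0.086 was the largest among the 10 genes (adjusted p = 0.771, limma), and 30.7% of all genes tested had a larger one in either direction. Ring1 was also the member with the smallest unadjusted p = 0.131, which became 0.0342 after quantile normalization and 0.0332 with median centring, at adjusted p = 0.692 and 0.520 (limma). These scalings gave an unadjusted p below 0.05 to 6.55% and 8.97% of all genes.

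Rnf2, the other ligase, read 2753, 2337 and 2802 against 2974, 2878 and 2802 on its brighter probe set (1424873_at). The restored-labelled array of mouse 279 was again the lowest, mouse 281 read alike in both populations, and the difference was 0.14 ± 0.093 (adjusted p = 0.776, limma), or 0.055 without mouse 279. A second probe set (1451519_at) read 1351, 1051 and 1429 against 1630, 1647 and 1557. The groups did not overlap there, and the difference was 0.34 ± 0.15 (adjusted p = 0.828, limma over 45037 probe sets), with 0.27, 0.64 and 0.12 in the single mice. The other 3 Rnf2 probe sets lay between 14.5 and 57.1 and below the filter.

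The chromobox genes encode the readers of the methyl mark, and cells use them in exchange for one another within PRC1. Cbx2 (1434116_at) read 2017, 2353 and 1650 in restored-labelled cells and 1795, 1890 and 1879 in knockdown-labelled cells. It differed by -0.098 ± 0.13 (adjusted p = 0.834, limma), and by 0.0094 without mouse 279. The second Cbx2 probe set lay between 36.0 and 59.2 and below the filter. Cbx7 was dim: its brightest probe set (1420039_s_at) read 276, 271 and 251 against 252, 293 and 240, a difference of -0.026 ± 0.084 (adjusted p = 0.935, limma). Its other 2 probe sets were higher in every mouse, by 0.015 to 0.072 for 1449713_at and by 0.048 to 0.41 for 1433557_at, whose mean lay below the filter. The values of 1449713_at were 171, 176 and 170 against 181, 178 and 180, and those of 1433557_at were 105, 129 and 127 against 145, 147 and 132. These gave 0.053 ± 0.11 and 0.21 ± 0.13, and the first was -0.054 with median centring. The separation of the groups at 1449713_at is complete but amounts to 0.015 in mouse 279.

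Cbx8 read 246, 184 and 201 in restored-labelled cells and 195, 227 and 160 in knockdown-labelled cells (1419198_at). Mice 278 and 281 were lower by similar amounts, at -0.31 and -0.30, whereas mouse 279 gave 0.28, so that the 3 together made -0.11 ± 0.16 (adjusted p = 0.846, limma). Without mouse 279 the difference was -0.31 ± 0.074, at an unadjusted p = 0.0252 and adjusted p = 0.800 (limma), where 6.03% of all genes had an unadjusted p below 0.05. The second Cbx8 probe set (1419199_at) had a mean below the filter and read 8.97 on the restored-labelled array of mouse 279, against 81.4 to 200.1 on the other 5 arrays.

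**Figure D2:**
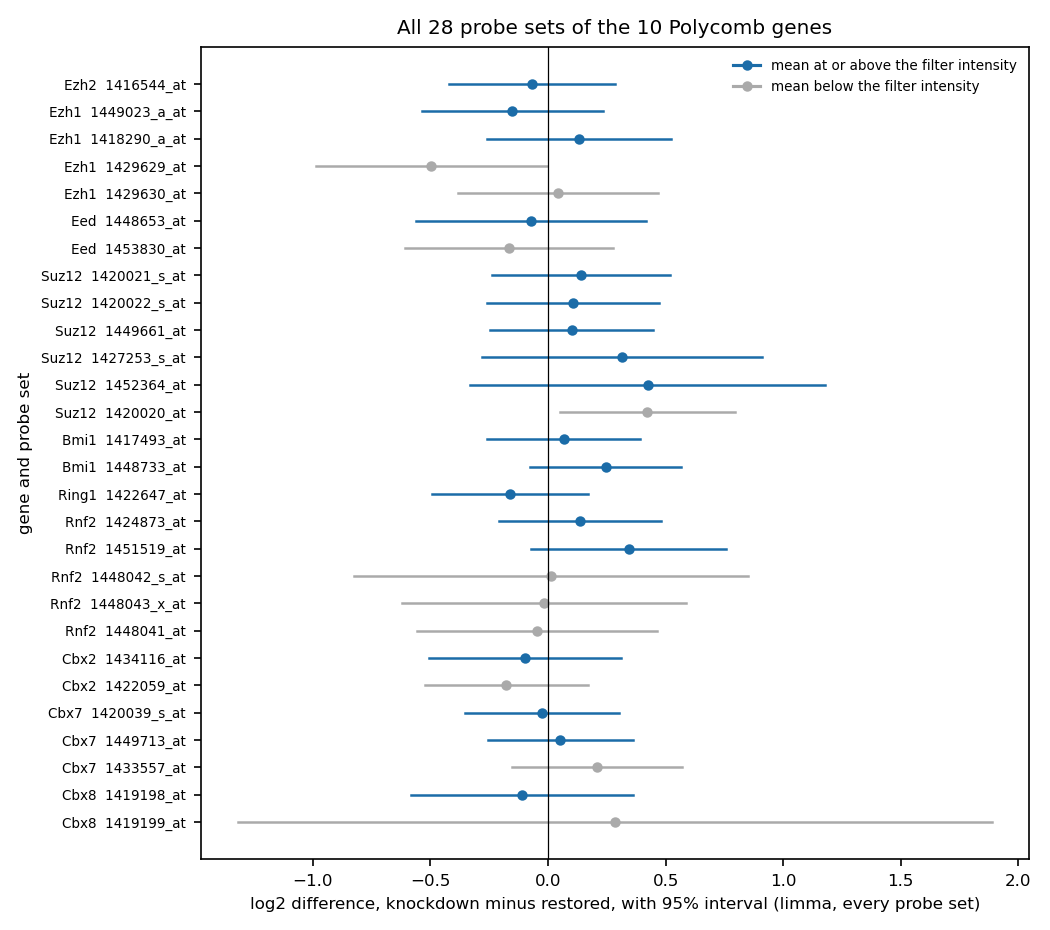
Difference of each of the 28 probe sets, as knockdown-labelled less restored-labelled log2(intensity + 16), with its 95% interval in the limma fit of every probe set, blue where the mean passes the filter intensity and grey where it does not. The intervals of all 18 blue probe sets include 0, and the 2 that exclude 0, a Suz12 and an Ezh1 probe set, are grey.

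Counted over the genes, 3 of 10 were higher (Suz12, Rnf2 and Bmi1, the last turning to -0.040 with median centring) and 7 lower, beside 50.0% of all genes higher and 50.0% lower. Without mouse 279, 6 were higher and 4 lower, in a fit where the median over all genes was 0.029 in place of -0.00015. At adjusted p below 0.05 limma called 0 of 10 members and 0 of 10824 genes, a background of 0%. At unadjusted p below 0.05 it called 0 of 10 members, against 632 genes or 5.84% of all. In 0 of 10 were the 3 arrays of one group all above those of the other, a pattern found for 10.1% of all genes as higher and 5.08% as lower. Only Suz12 was higher and only Ring1 lower in all 3 mice, 1 of 10 each, against 19.8% and 12.4% of all genes. The median size of the difference, regardless of direction, was 0.10 for the members and 0.10 for all genes. The 95% intervals of the 10 genes together span folds of 0.686 to 1.37.

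Over the 28 probe sets, 16 were higher and 12 lower, beside 55.8% and 44.2% of all probe sets. In all 3 mice 8 were higher and 3 lower, beside 18.6% and 10.3%. The dim probe sets are among these counts. Of the 28, 5 showed groups without overlap with the knockdown-labelled cells higher, against 8.11% of all probe sets, and 0 with them lower, against 4.10%. The 5 are the second Bmi1 and Rnf2 probe sets, the dim one of Suz12 and 2 of Cbx7, of which 1433557_at lay below the filter. Unadjusted p below 0.05 was reached by 2 of 28, against 6.01% of all probe sets, and by 0 of 28 without a term for the mouse, while 0 passed the adjusted threshold (limma). Probe sets of 1 gene read the same transcripts and are not independent of each other.

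The restored-labelled array of mouse 279 stood apart, in these genes as over all probe sets past the filter. Among the 18 probe sets past the filter it was the lowest of the 6 arrays in 9 and the highest in 5, where it was lowest in 25.7% and highest in 32.5% of all 22519 probe sets past the filter. It was lowest for all 5 of Suz12 and both of Bmi1 and of Rnf2, and highest for Ezh2, the brightest of Ezh1, Eed, Ring1 and Cbx2. Its median distance from the middle of the other arrays was 0.27 log2 units over these 18 probe sets, against 0.070 to 0.085 for the other 5 arrays. Over all 22519 probe sets it was also apart, at 0.22 against 0.097 to 0.13. The same array had the highest ratio of 3' to 5' control signals of Gapdh and Actb, a sign of RNA length, at a log2 ratio of 0.71 against 0.47 to 0.54 elsewhere. The part of this ratio in the results was not tested. With that array left out and the mouse term dropped, Ezh2 differed by -0.0021 ± 0.064, Suz12 by 0.034 ± 0.056, Rnf2 by 0.054 ± 0.056 and Ring1 by -0.089 ± 0.098.

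**Figure D3:**
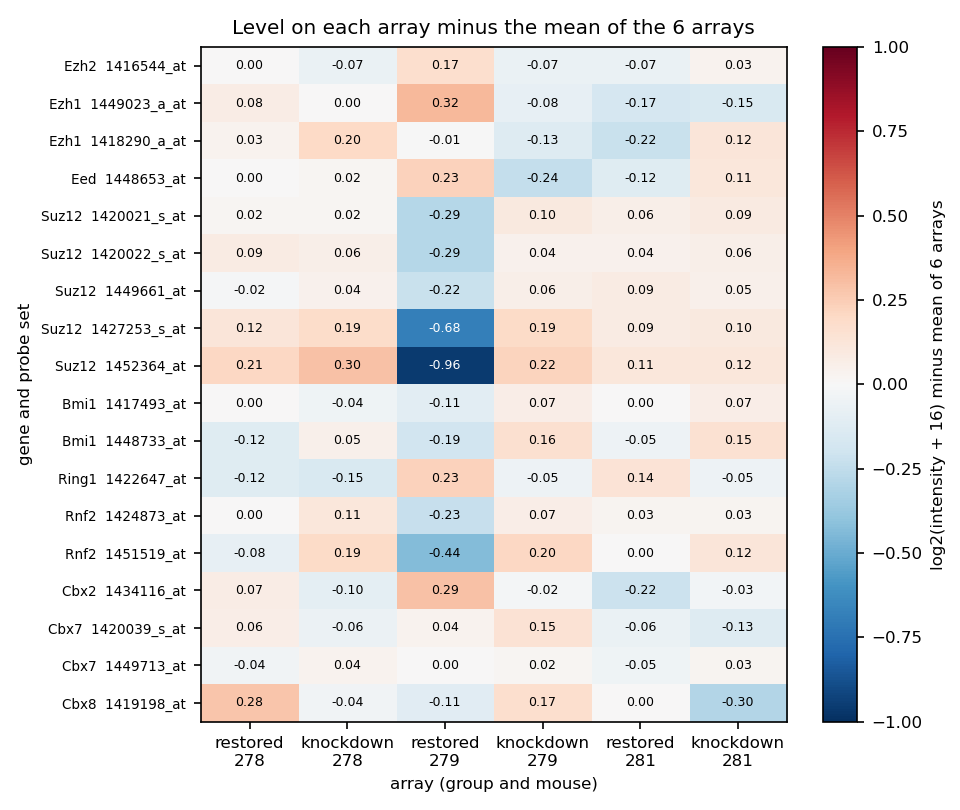
Level of the 18 probe sets past the filter on each array minus the mean of the 6 arrays, on the log2(intensity + 16) scale, with red above and blue below the mean. The column of the restored-labelled array of mouse 279 holds the deepest blue, at 2 Suz12 probe sets, and most of the strong colours.

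Other subunits of the complexes were taken from fixed lists and counted in the same fit, in which no listed gene passed the adjusted threshold (adjusted p of 0.771 or above, limma). Over all genes tested the median was -0.00015, 50.0% were higher and 50.0% lower, and 5.84% had an unadjusted p below 0.05 (limma). For PRC2, 8 of 9 listed partner genes were tested, 5 higher and 3 lower, with a median of 0.049, which turned to -0.058 with median centring. The 2 with the smallest unadjusted p were Lcor, whose locus also encodes a PRC2-binding protein, at 0.16 ± 0.078, and Jarid2, which recruits PRC2 to its targets, at 0.17 ± 0.10. Without mouse 279 they gave 0.20 and 0.063. Lcor read 2966, 3160 and 2895 against 3549, 3353 and 3190, so its groups did not overlap, and its other probe sets past the filter gave 0.46 and 0.45.

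For PRC1, 19 of 22 listed partner genes were tested. Of these 13 were higher and 6 lower, with a median of 0.12 (0.014 with median centring), and 2 had an unadjusted p below 0.05, against 5.84% of all genes. Auts2, whose protein turns some PRC1 complexes into activators, read 1528, 1067 and 907 in restored-labelled cells and 2332, 1537 and 1765 in knockdown-labelled cells. Every knockdown-labelled array lay above every restored-labelled one, and the difference was 0.69 ± 0.12, or 1.61-fold (adjusted p = 0.771, limma). A second Auts2 probe set past the filter read 918, 445 and 484 against 1311, 1101 and 901, a difference of 0.89 ± 0.19 with overlapping groups. Pcgf3, a relative of Bmi1 in other PRC1 complexes, read 1362, 1131 and 1231 against 1603, 1288 and 1523. It was higher in each mouse by 0.23, 0.18 and 0.30, although the groups overlapped, and differed by 0.24 ± 0.073 (adjusted p = 0.771, limma).

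Among the genes that remove Polycomb marks, 8 of 10 were tested, 6 higher and 2 lower, with 0 at an unadjusted p below 0.05. Their median was 0.087, or -0.020 with median centring. Kdm6b, a demethylase of lysine 27, read 5279, 4811 and 5177 against 5989, 6016 and 5680, with no overlap and a difference of 0.21 ± 0.080. Foxk1, a DNA-binding partner of the H2A deubiquitinase, differed by 0.30 ± 0.16, or by 0.11 without mouse 279. Of the Trithorax genes, whose products oppose Polycomb, 14 of 15 were tested, 7 higher and 7 lower. Their median of 0.018 became -0.089 with median centring, and 1 had an unadjusted p below 0.05, against 5.84% of all genes. That 1 was the methyltransferase gene Kmt2c, which differed by 0.32 ± 0.11 on its brightest probe set and by 0.40 ± 0.13, 0.052 ± 0.17 and -0.0060 ± 0.18 on 3 others past the filter. The unadjusted p of its brightest probe set, 0.0449, became 0.152 with median centring (limma). Kmt2a differed by 0.17 ± 0.072.

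Genes known as Polycomb targets were mostly at low intensity, as 12 of the 19 listed had no probe set past the filter. Among them Cdkn2a, singled out here for its place in BMI1 biology after its values were seen, read 50.8, 58.2 and 43.3 in restored-labelled cells and 52.5, 33.9 and 51.0 in knockdown-labelled cells. Of the 7 tested, 6 were higher and 1 lower, beside 50.0% of all genes each way, with a median of 0.11 (0.0051 with median centring). An unadjusted p below 0.05 was given to 2, Hmga2 and Pax6, against 5.84% of all genes (limma). Hmga2, a chromatin gene of fetal stem cells, read 1933, 1617 and 1438 in restored-labelled cells and 3105, 2641 and 3088 in knockdown-labelled cells. It was higher in every mouse by 0.68, 0.70 and 1.09, which made 0.83 ± 0.12, or 1.77-fold (adjusted p = 0.771, limma), and it did not pass. Its other 2 bright probe sets gave 0.84 and 0.88. Pax6, a gene of eye and brain development, differed by 0.24 ± 0.069 at a level between 173 and 270, close to the filter, and its other 4 probe sets were below the filter. Its unadjusted p of 0.0250 became 0.114 with quantile normalization and 0.216 with median centring (limma). Hoxa9, named for its role in stem cells after its values were seen, read 4972, 4935 and 4634 against 5332, 5074 and 5264, a difference of 0.11 ± 0.075.

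**Figure D4:**
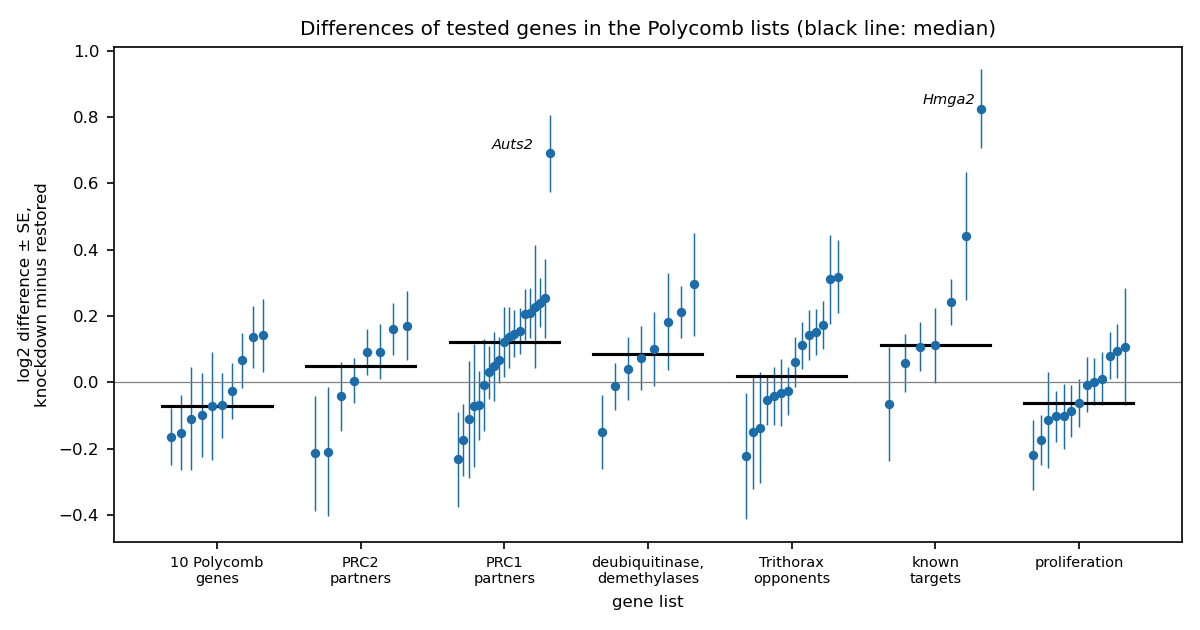
Difference of each tested gene, as knockdown-labelled less restored-labelled log2(intensity + 16), with its standard error, in the 10 Polycomb genes and 6 further lists, and a black line at each list's median. The 10 Polycomb genes lie between -0.16 and 0.14, while Auts2 at 0.69 and Hmga2 at 0.83 lie above the other genes drawn.

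Proliferation genes were set beside Ezh2, which is known to follow cell division. Of 13 tested, 5 were higher and 8 lower, beside 50.0% of all genes each way, with a median of -0.063. Among them 0 had an unadjusted p below 0.05, against 5.84% of all genes (limma). Without mouse 279 the median was 0.0054. The mitotic kinase genes Plk1 and Aurka differed by -0.17 ± 0.076 and -0.22 ± 0.10, or by -0.14 and -0.11 without mouse 279. The restored-labelled array of mouse 279 lay highest in this list as it did for Ezh2, with a median of 0.14 above the mean of the arrays, where the other 5 lay between -0.045 and 0.0017. The part of cell division in the Ezh2 values was not tested.

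The genes whose levels over the 6 arrays were most like those of Ezh2, by Pearson's r among 10823 other genes, were Spg7 (0.998), Smarca4 (0.998) and Racgap1 (0.996). For Ezh1 they were Vps18 (0.997), Exosc5 (0.996) and Cox7a2 (0.993). Smarca4 encodes a chromatin remodelling ATPase of the Trithorax group, Racgap1 acts in cytokinesis and Cox7a2 in the respiratory chain. All 6 genes had the restored-labelled array of mouse 279 as the highest of the 6 arrays, so this likeness is a description of arrays that share that feature. Smarca4 read 3036, 4011 and 2764 against 2780, 2752 and 3217, which is the up and down of Ezh2 on a wider scale.

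Markers of other cells were measured beside the Polycomb genes, and the summed levels of 2 of 6 lists did not overlap between the sorted groups, while no marker passed the adjusted threshold (limma). Of the LSK and stem cell markers all 9 with a named probe set were past the filter, among them Kit at 3972 to 5206 and Cd34 at 8800 to 9512. The marker of the gate encoded by Ly6a was not analysed here. The summed level of these 9 also did not overlap, at 42554.6 to 42874.5 in restored-labelled and 44369.7 to 47092.2 in knockdown-labelled cells. Of the 9, 7 were higher and 2 lower, beside 50.0% of all genes each way. The summed level of the 10 named B lineage and plasma cell markers was 11082 to 12847 in the restored-labelled and 16635 to 27054 in knockdown-labelled cells, without overlap, with Pax5 at 0 to 32.5. Of the 6 tested, 5 were higher, led by the immunoglobulin gene Ighm at 2.14, and Cd79b was lower in all 3 mice at -0.11. That of the 7 macrophage and monocyte markers was 3915 to 4400 against 2760 to 3172, also without overlap, with C1qa at 17.0 to 110.7. The markers named here were picked after their values were seen. The 7 mature neutrophil markers summed to 16555 to 43698 against 24077 to 48751, the 8 of megakaryocytes and platelets to 9927 to 13251 against 9116 to 10252, the 7 erythroid ones to 6583 to 15067 against 6564 to 19231, and the 6 of T and NK cells to 1431 to 1933 against 1468 to 1720. Such sums follow the brightest genes of a list, and separation was not particular to these 2 lists. The sums of PRC2 partners, PRC1 partners, genes that remove Polycomb marks, Trithorax genes and known targets also did not overlap. Each was higher in knockdown-labelled cells, for known targets at 12562 to 13299 against 10097 to 10939 in restored-labelled cells. The sums of the 10 members overlapped, at 23396 to 24894 in restored-labelled and 23790 to 24708 in knockdown-labelled cells, as did those of the proliferation genes. Of the 8 megakaryocyte and platelet markers tested, 7 were lower, with a median of -0.56. Unadjusted p below 0.05 was reached by 4 of these 8, all lower, and by 4 of 6 B lineage ones, all higher. It was reached by 2 of 4 macrophage markers and 1 of 5 erythroid ones, all lower. For neutrophil and T and NK cell markers it was 0 of 7 and 0 of 3, against 5.84% of all genes (limma). The part of these markers in the differences above was not tested. The median probe set per array lay between 135 and 157.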

How the data were processed

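Per the labels' protocols, RNA of sorted cells was amplified by a NuGEN Ovation kit and read on Affymetrix mouse arrays. The values deposited are intensities, 1 per probe set, on a linear scale. The authors' summary, background and normalization steps are not given in the sources used here, and no depth exists for an array, so the number of arrays limits the precision.

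Of 45101 probe sets 64 controls were left out. A single symbol is given for 34945, several for 932 and none for 9160. The gene identifiers of 34741 matched RefSeq (GRCm38.p6). Intensities were taken to log2(value + 16), which understates changes of dim genes. The filter kept 22519 probe sets, and a gene's reading is its probe set with the highest mean. Fits used limma 3.58.1 in R 4.3.3 (lmFit, eBayes) with the mouse as a block, since both populations came from the same animal. Same-mouse correlations of deviations from the group means were 0.44, -0.17 and -0.29 for mice 278, 279 and 281. Between different mice they ran from -0.27 to 0.41. Restored-labelled cells of mouse 279 were most like knockdown-labelled cells of mouse 281, at 0.41. Restored-labelled cells of mouse 281 were most like knockdown-labelled cells of mouse 279, at 0.34. The pairing used here follows the labels, and the cause of these crossed likenesses was not tested. The fit was also run on simulated data with independent noise between arrays. These lack the deviating array of mouse 279 and the crossed likenesses, and no result here rests on them. The errors and p-values of limma rest on the spread between 3 mice, which eBayes draws toward the spread common to all features of the fit. The same probe set can thus have 2 errors, as for Ezh2 with 0.098 among genes and 0.13 among all probe sets.

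The members and gene lists were chosen with earlier results of these data known. Genes named are the 10 members, the 2 of each further list with the smallest unadjusted p, the 3 most like Ezh1 and Ezh2, and Erg; others are said to be named after their values were seen. Alternatives were no mouse block, a random block, quantile normalization, median centring, no filter, the upper 30%, the mean over probe sets, trend and robust eBayes, array weights, added values of 1 and 64, each mouse left out, and 5 arrays. Figures were drawn with matplotlib 3.10.9.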

Additional observations from a re-analysis of the deposited data

How the results depend on the processing

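No alternative brought a member past the adjusted threshold: over 15 alternatives the smallest adjusted p of a member gene was 0.520 (limma), and 0 genes in all were called under each. Of 148 member values 139 kept their direction. With no replicate block 634 genes had an unadjusted p below 0.05, against 632 with the block (limma). As 0 genes were called with or without the block, there was no call of a member gene for the pairing to change. The number of members at an unadjusted p below 0.05 was 0, but 1 with quantile normalization and with median centring, and from 0 to 1 when a mouse was left out. Trend and robust eBayes called 1 of all probe sets, where the other settings called 0. The smallest sign-flip p of 3 mice needs the same sign in all 3, and 11 member probe sets reached it. Of all probe sets, 18.6% were higher and 10.3% lower in all 3 mice. With median centring 7 member probe sets reached it, for which no share over all probe sets is given. That centring moved the median of all genes from -0.00015 to -0.11 and the share of genes higher among those at an unadjusted p below 0.05 from 67.9% to 14.7% (35.5% with quantile normalization). Under it Bmi1 became -0.040, the Erg probe set 1440244_at -0.083, the Suz12 probe sets 1420022_s_at and 1449661_at -0.0013 and -0.0066, the Cbx7 probe set 1449713_at -0.054 (-0.045 with quantile normalization), and the medians of PRC2 partners, mark removers and Trithorax genes -0.058, -0.020 and -0.089. Leaving out each mouse gave ranges of -0.15 to 0.014 for Ezh2, -0.23 to 0.13 for Eed, -0.24 to 0.0094 for Cbx2, -0.091 to 0.023 for Cbx7, -0.38 to 0.030 for Spg7, -0.33 to 0.046 for Smarca4, -0.28 to 0.038 for Racgap1 and -0.059 to 0.0054 for the proliferation median. For the probe sets 1420022_s_at of Suz12, 1419199_at of Cbx8 and 1440244_at of Erg they were -0.0050 to 0.17, -0.57 to 0.81 and -0.025 to 0.073. With 5 arrays and no mouse term Eed gave 0.024, Cbx2 0.023, Spg7 0.0021, Smarca4 0.0058, the proliferation median 0.026, and the Suz12 and Cbx8 probe sets -0.011 and -0.62. Cbx7 gave 0.014 as the mean over probe sets, and with array weights Eed gave 0.0021 and the Cbx8 probe set -0.14. The cause of these turns was not tested.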
